A study of Homo sapiens with 6 samples.

Results

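Homologous recombination and the Fanconi anemia pathway were represented by 37 genes, selected by symbol for their function in these pathways. They were chosen with earlier results of these data known. All 37 were found among the 58735 genes of the deposited table. They comprise the BRCA core (BRCA1, BRCA2, PALB2, BARD1, BRIP1), the XRCC2 and XRCC3 complexes (RAD51B, RAD51C, RAD51D, XRCC2, XRCC3) and the RAD54 translocases (RAD54L, RAD54B). Proteins of end sensing and resection (RBBP8, RAD50, NBN, EXO1) and the checkpoint kinases (ATM, ATR, CHEK1, CHEK2) follow. The Fanconi side holds the core complex (FANCA, FANCB, FANCC, FANCE, FANCF, FANCG, FANCL, FANCM) and its substrates FANCD2 and FANCI. The set closes with the BLM dissolvasome (BLM, TOP3A, RMI1, RMI2) and the junction nucleases (SLX4, MUS81, EME1).

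The measurements come from T24, an established human cell line derived from a bladder urothelial carcinoma, with a genotype labelled wild type. Cells in medium with 10% serum either received the cytokine TGF-β1 at 10 ng/ml for 48 h (3 libraries) or did not (3 control libraries), and all 6 libraries were labelled day 2. The comparison asks which transcripts differ with TGF-β1, and the title of the series names epithelial-to-mesenchymal transition and cancer stem cell traits. All libraries derive from 1 cell line, and separate cultures are not mentioned in the labels, so each p-value speaks of the scatter among these 6 libraries, which may be technical.

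Homologous recombination repairs breaks through both DNA strands by copying an intact sister chromatid. A broken end is first trimmed to a single-stranded tail, on which BRCA2 helps assemble the filament that searches for the matching sequence, and the joined molecules that result are taken apart by a helicase and topoisomerase complex or cut by nucleases. The Fanconi anemia pathway acts on crosslinks between the strands: its core complex attaches ubiquitin to FANCD2 and FANCI, and the lesion is then unhooked and passed on to recombination. Transcription of many of these genes peaks around S phase of dividing cells, and inherited loss of several predisposes to cancer.

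Values are FPKM, fragments scaled by exon length and library size, so levels of different genes can be compared only roughly. The length covers all annotated exons of a gene, whether or not these cells use them. Levels of RAD50, XRCC3 and RAD54B are uncertain because most of their exon bases are shared with other genes. The libraries held 53591796 to 60200816 reads, of which 93.5 to 95.5% mapped, and members had 49 to 2267 fragments each per library. TGF-β1 was detectable in its usual targets: PMEPA1, SMAD7, SKIL and FN1 all rose (4 of 4), with log2 changes of 1.11 to 2.20. Of 15 urothelial and epithelial identity genes 7 were abundant enough to be tested. Of these 7, 1 had a log2 change above 0, with a median of -0.331 (limma adjusted p 0.0793 to 0.866). KRT8 and KRT18 stood at 222 and 322 FPKM in control libraries. There CDH1, EPCAM, GATA3, UPK2 and KRT20 stood at only 0.0286, 0.221, 0.0471, 0.147 and 0.00781 FPKM, and KRT5, KRT19 and UPK3A were listed at 0 in every library. Among 8 markers of blood, endothelial, stromal and liver cells, none reached the abundance filter, the highest was PECAM1 at 0.509 and 0.406 FPKM in the control and TGF-β1 groups, and CD3E and COL1A2 were listed at 0. Control 3 stood apart from the other 2 control libraries: in the 20% of genes poorest in GC the median deviation from the gene mean was -0.146, -0.136 and 0.0379 (log2) in controls 1 to 3 and 0.0278 to 0.143 in the TGF-β1 libraries.

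Across the libraries the 37 genes spanned a wide range of levels. Over all 6 libraries the median member stood at 4.66 FPKM, 17 members averaged over 5 FPKM, and 3 (FANCM, RAD51B and RAD50) averaged under 1 FPKM. FANCG, a scaffold subunit of the Fanconi core complex, had the highest deposited level, at 17.3, 18 and 15.8 FPKM in control libraries 1 to 3 and 15, 16.5 and 16.5 FPKM in TGF-β1 libraries 1 to 3. TOP3A, the topoisomerase that works with BLM, came next, at 12.6, 12.2 and 12.0 FPKM in control and 13.3, 12.2 and 12.7 FPKM in TGF-β1 libraries. RAD54L, which moves along DNA and drives strand invasion, followed, at 10.7, 9.66 and 10.1 FPKM in control and 9.85, 10.8 and 10.2 FPKM in TGF-β1 libraries. In none of these 3 genes were the groups separate. The median coefficient of variation of the members was 10.7% in control and 5.14% in TGF-β1 libraries, and counting error alone in the library with fewest fragments was 2.36% for TOP3A and 14.3% for RAD50. RAD50, the structural subunit of the end-sensing complex, had the lowest deposited level, at 0.311, 0.326 and 0.354 FPKM in control and 0.234, 0.499 and 0.444 FPKM in TGF-β1 libraries.

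**Figure D1:**
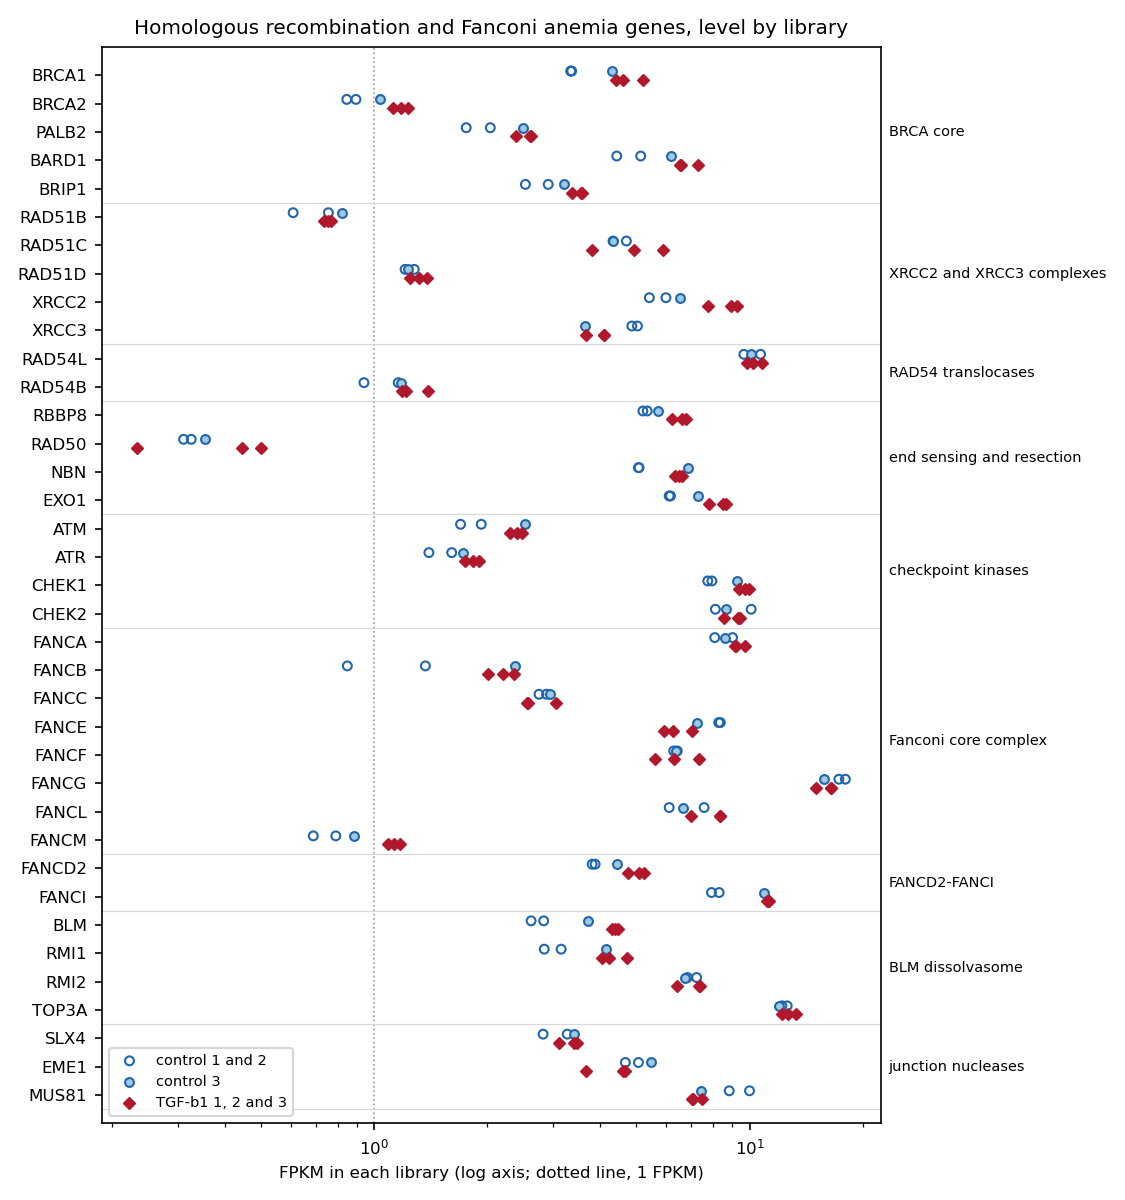
FPKM of each of the 37 members (rows, grouped by role) in each library on a log axis, with controls 1 and 2 as open circles, control 3 as filled circles and the 3 TGF-β1 libraries as diamonds. XRCC2 and BLM lie entirely to the right of their controls, and in PALB2, NBN, ATM, FANCB and RMI1 control 3 lies among or beyond the TGF-β1 libraries.

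XRCC2 was the only member that changed with TGF-β1 past the threshold, an adjusted p of 0.05 over 11363 genes, which 277 genes (2.44%) passed. XRCC2 encodes a subunit of a complex that helps recombination filaments form. It stood at 5.41, 5.99 and 6.54 FPKM in the control libraries and at 7.74, 9.24 and 8.94 FPKM in the TGF-β1 libraries. Every TGF-β1 value lay above every control value, and XRCC2 rose 1.44-fold, with means of 5.98 ± 0.561 and 8.64 ± 0.792 FPKM (SD, n = 3 per group). Expressed as log2(FPKM + 1), a transform that shrinks changes at low levels, the difference was 0.47 (SE 0.102, limma adjusted p = 0.0387). XRCC2 rests on 588 to 1075 fragments per library, none of its exon bases are shared with another gene, and it lies on chromosome 7 at 152644779 to 152676165 (GRCh38, minus strand). The call depended on the set of libraries. The adjusted p was 0.205 without control 1, 0.107 without control 2, 0.173 without TGF-β1 library 2 and 0.127 without TGF-β1 library 3. In those fits 1.09%, 1.55%, 1.34% and 1.34% of all genes passed. The adjusted p was 0.0121 without control 3 (28.9% of all genes passed) and 0.0363 without TGF-β1 library 1 (2.9%). Testing every gene, however low, gave 0.286, and the fit without limma's trend and robust estimation gave 0.0637. With a GC and length trend removed from each library the difference was 0.33 (SE 0.0661, adjusted p = 0.0312).

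BLM, the helicase mutated in Bloom syndrome, had the next largest difference on log2(FPKM + 1) but missed the threshold. It stood at 2.83, 2.62 and 3.71 FPKM in control and 4.47, 4.30 and 4.38 FPKM in TGF-β1 libraries, with no overlap. The means were 3.06 ± 0.58 and 4.39 ± 0.0871 FPKM, a ratio of 1.43 and a log2 difference of 0.42 (SE 0.111, adjusted p = 0.0746). Without control 3 the adjusted p for BLM was 0.00822, and by voom, limma's count model applied to fragments recovered from the FPKM, it was 0.0186. The ranking depended on the scale. By voom FANCB had a log2 difference of 0.63, against 0.53 for XRCC2 and 0.54 for BLM. With 0.1 as the pseudocount these were 0.596, 0.523 and 0.522. Voom called 3 members, XRCC2, BLM and FANCM, where 9.33% of all genes passed; FANCM reached 1 FPKM in no control library and was tested only through its TGF-β1 values.

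Most of the other differences were small and of 1 sign. Of 35 members tested, 29 had a log2 difference above 0 (82.9%, against 52.0% of all genes tested), and the median was 0.166 against 0.0117 for all genes. At an unadjusted p under 0.05, 11 members were higher (31.4%) and 2 lower (5.71%), where 11.2% of all genes were higher and 13.9% lower. In 15 members (42.9%) all TGF-β1 values lay above all control values, against 14.6% of all genes, and in FANCE and EME1 (5.71%) all lay below, against 12.5% of all genes. The 15 were BRCA1, BRCA2, BARD1, BRIP1, XRCC2, RAD54B, RBBP8, EXO1, ATR, CHEK1, FANCA, FANCM, FANCD2, FANCI and BLM. The full range ran from -0.27 in FANCE to 0.47 in XRCC2. Since the members were chosen with earlier results of these data known, the shares above are a description. RAD51B and RAD50 were below the filter of 1 FPKM in 3 libraries and were not tested. FANCM met the filter in the TGF-β1 libraries alone and BRCA2 in those and 1 control, so both entered these counts through the group where they are high.

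These counts moved with control 3 and with base composition. Control 3 exceeded both other controls in 22 of the 35 members (and in 41.5% of all genes) and lay below both in 7. Without it 14 members passed as higher (40.0%; 12.4% of all genes did) and 3 as lower (8.57%; 16.5% of all genes). The 14 were BRCA1, PALB2, BARD1, BRIP1, XRCC2, RBBP8, NBN, EXO1, CHEK1, FANCB, FANCD2, FANCI, BLM and RMI1, and the 3 were XRCC3, FANCE and MUS81. With the GC and length trend removed XRCC2 alone passed (4.32% of all genes did), 24 of 35 members lay above 0, and the median was 0.0744 against 0.00533 for all genes. On that scale 9 members lay wholly higher (14.5% of all genes did), namely XRCC2, BLM, BARD1, EXO1, RBBP8, FANCA, FANCD2, FANCI and TOP3A, and ATM and MUS81 wholly lower (12.8% of all genes). With the trend removed and control 3 also left out, XRCC2, BLM and FANCI passed, where 8.41% of all genes did.

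**Figure D2:**
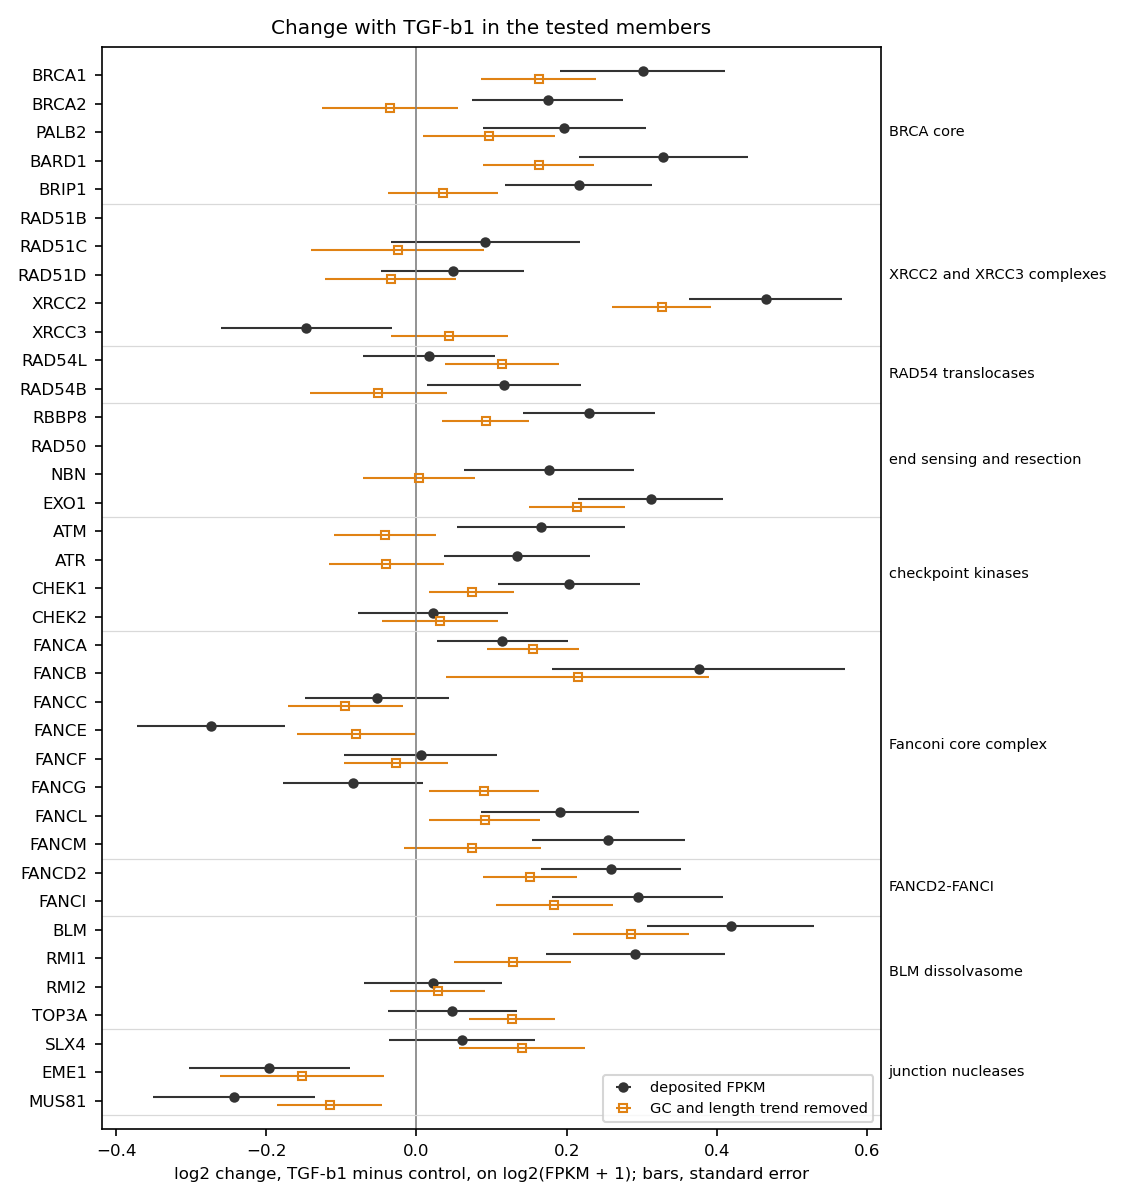
Log2 difference, TGF-β1 minus control, of the 35 tested members (rows, grouped by role) as deposited (filled circles) and after removal of the GC and length trend (open squares), with standard errors as bars; RAD51B and RAD50 were not tested and have no point. XRCC2 and BLM lie farthest to the right on both scales, and FANCE, MUS81 and EME1 farthest to the left as deposited.

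Member transcripts were poorer in G and C than most, with a median of 42.4% GC against 48.1% for all genes tested. Across the 35 members the log2 difference ran against GC content (Pearson r = -0.773, Spearman rho = -0.71), as it did across 11292 genes (r = -0.54, rho = -0.615). These are correlations across genes of the same 6 libraries, which share depth and preparation, and genes are not independent replicates. All 23 members below the median GC had differences above 0 (median 0.216), where 4393 of 5646 genes in that range did (median 0.12). Of the 12 members at or over it, 6 did (median -0.0179), where 1476 of 5646 genes did (median -0.128). With the trend removed the correlation across members was -0.204 (rho = -0.139), and the medians of the GC-poor and GC-rich members were 0.0911 and 0.0377. The part of library composition in the members' differences was not tested further.

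**Figure D3:**
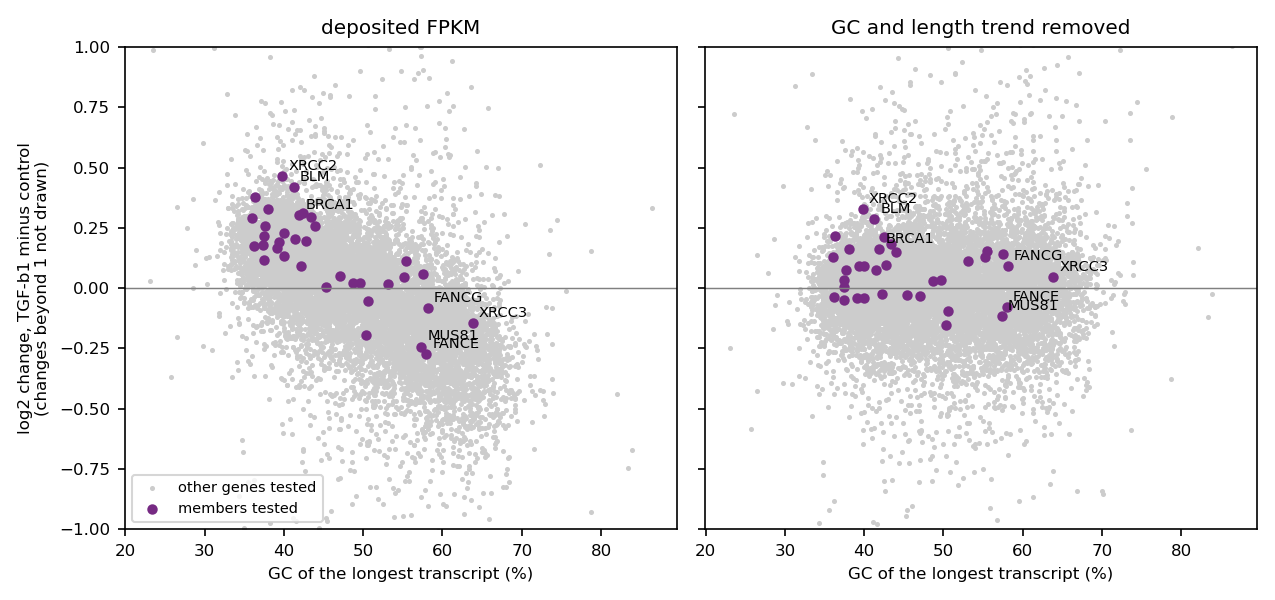
Log2 difference, TGF-β1 minus control, against GC content of the longest transcript for members (large points) and all other genes tested (grey), as deposited (left) and after removal of the GC and length trend (right); genes beyond 1 on the vertical axis are not drawn. On the left the members follow the slope of the other genes (r = -0.773 in members, -0.54 in all), and on the right XRCC2 and BLM remain the highest members.

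All 5 BRCA core genes had differences above 0, with adjusted p-values of 0.127 to 0.286. BARD1, the ring-finger partner of BRCA1, had both the highest level and the largest difference of the group. It stood at 5.13, 4.43 and 6.17 FPKM in control and 6.51, 6.58 and 7.31 FPKM in TGF-β1 libraries, without overlap (log2 difference 0.33, SE 0.113, adjusted p = 0.127). BRCA1, the ubiquitin ligase and scaffold, was at 3.67 ± 0.557 and 4.74 ± 0.421 FPKM (log2 difference 0.30, adjusted p = 0.137). The ratio of BRCA1 to BARD1 stayed near 0.703 ± 0.0537 in control and 0.70 ± 0.0949 in TGF-β1 libraries, a difference smaller than the spread of the libraries. PALB2, which links BRCA1 to BRCA2, was at 2.10 ± 0.372 and 2.54 ± 0.123 FPKM. BRIP1, a helicase bound by BRCA1, was at 2.88 ± 0.338 and 3.50 ± 0.113 FPKM, and BRCA2, the filament loader, at 0.928 ± 0.103 and 1.17 ± 0.0542 FPKM. The adjusted p-values of PALB2, BRIP1 and BRCA2 were 0.199 to 0.286. For BRCA2 the sign was not stable: its log2 difference was 0.17 as deposited and -0.036 after the GC and length trend was removed.

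Within the XRCC2 and XRCC3 complexes only XRCC2 passed the threshold, and no test between genes was run. RAD51B, RAD51C, RAD51D and XRCC2 form 1 complex, and RAD51C also pairs with XRCC3. RAD51D stood at 1.24 ± 0.033 and 1.32 ± 0.0677 FPKM and RAD51C at 4.45 ± 0.215 and 4.87 ± 1.04 FPKM (adjusted p = 0.766 and 0.656). The ratio of XRCC2 to RAD51D was 4.24, 4.94 and 5.30 in control and 5.85, 7.41 and 6.47 in TGF-β1 libraries. Those ratios did not overlap, and their means were 4.83 ± 0.54 and 6.58 ± 0.784. RAD51D differed little, so the ratio mostly restates the XRCC2 values. The XRCC2 and RAD51D transcripts have 39.8% and 47.1% GC, and this ratio was not computed with the trend removed. RAD51B was at 0.729 ± 0.109 and 0.753 ± 0.0151 FPKM. XRCC3 was at 5.03, 4.86 and 3.65 FPKM in control and 4.10, 3.67 and 4.09 FPKM in TGF-β1 libraries (log2 difference -0.15, adjusted p = 0.417), and control 3 held the lowest value of all 6. The differences of RAD51C, RAD51D and XRCC3 changed sign when the GC and length trend was removed.

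The RAD54 translocases differed little. RAD54B, a paralog of RAD54L, stood at 1.16, 0.94 and 1.18 FPKM in control and 1.19, 1.22 and 1.39 FPKM in TGF-β1 libraries. Its groups did not overlap but nearly touched, and its log2 difference of 0.12 (adjusted p = 0.477) became -0.051 with the trend removed. RAD54L had a log2 difference of 0.02 (SE 0.0878, adjusted p = 0.915).

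In end sensing and resection, EXO1, the exonuclease that extends the trimmed tail, had the highest level and the largest difference. It stood at 6.16, 6.11 and 7.27 FPKM in control and 7.80, 8.66 and 8.48 FPKM in TGF-β1 libraries, without overlap (log2 difference 0.31, SE 0.0966, adjusted p = 0.103). RBBP8, also called CtIP, which starts resection together with the end-sensing nuclease, was at 5.42 ± 0.259 and 6.52 ± 0.275 FPKM (log2 difference 0.23, adjusted p = 0.149). NBN, the subunit that recruits ATM, was at 5.66 ± 1.03 and 6.48 ± 0.139 FPKM (adjusted p = 0.328), and control 3 alone reached the TGF-β1 range. The differences of EXO1, RBBP8 and NBN with the trend removed were 0.21, 0.092 and 0.0033.

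The checkpoint kinases had differences above 0 in 4 of 4 genes, with adjusted p-values of 0.206 to 0.905. CHEK1, the effector kinase of ATR, stood at 7.94, 7.74 and 9.26 FPKM in control and 9.70, 9.39 and 9.98 FPKM in TGF-β1 libraries (log2 difference 0.20, SE 0.0943, adjusted p = 0.206). CHEK2, the effector kinase of ATM, stood at 8.11, 10.1 and 8.68 FPKM in control and 8.56, 9.29 and 9.42 FPKM in TGF-β1 libraries (log2 difference 0.02, adjusted p = 0.905). The CHEK1 groups were separate by a small margin, and those of CHEK2 overlapped fully. ATM, which responds to DNA breaks, was at 2.05 ± 0.423 and 2.40 ± 0.0917 FPKM, and ATR, which responds to single-stranded DNA, at 1.58 ± 0.169 and 1.83 ± 0.0765 FPKM (adjusted p = 0.357 and 0.387). Removing the trend gave differences of -0.042 for ATM and -0.040 for ATR.

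Within the Fanconi core complex the subunits did not share a direction. Of 8 subunits 5 had differences above 0, and the median was 0.0598. FANCB, an X-linked subunit that partners the ligase, had the largest difference and the widest control spread. It stood at 1.37, 0.849 and 2.37 FPKM in control and 2.20, 2.01 and 2.36 FPKM in TGF-β1 libraries (log2 difference 0.38, SE 0.195, adjusted p = 0.256). Control 3 held the highest FANCB value of all 6 libraries, and without it the adjusted p was 0.0174. FANCM, the DNA translocase that anchors the complex, was low, and since it met the abundance filter only in the TGF-β1 group its values are a description: it stood at 0.791, 0.689 and 0.884 FPKM in control and 1.09, 1.17 and 1.13 FPKM in TGF-β1 libraries, a ratio of 1.44 (log2 difference 0.26). FANCL, the ubiquitin ligase itself, was at 6.78 ± 0.735 and 7.88 ± 0.768 FPKM, and FANCA, the most often mutated subunit in patients, at 8.57 ± 0.466 and 9.35 ± 0.312 FPKM (adjusted p = 0.268 and 0.408).

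FANCE, the subunit that binds FANCD2, pointed the other way. It stood at 8.28, 8.36 and 7.23 FPKM in control and 5.93, 6.26 and 7.04 FPKM in TGF-β1 libraries, all below the controls. Its log2 difference was -0.27 (SE 0.0981, adjusted p = 0.134), -0.33 without control 3 (adjusted p = 0.0286), and -0.080 with the trend removed (adjusted p = 0.599). FANCC, FANCF and FANCG stood at 2.86 ± 0.103, 6.35 ± 0.071 and 17.1 ± 1.12 FPKM in control and at 2.73 ± 0.286, 6.42 ± 0.869 and 16 ± 0.896 FPKM in TGF-β1 libraries. Their adjusted p-values were 0.570 to 0.978, and in FANCF and FANCG the sign changed with the trend removed.

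The substrates of the core complex lay higher in every TGF-β1 library than in any control. FANCI stood at 7.92, 8.30 and 10.9 FPKM in control and 11.1, 11.3 and 11.2 FPKM in TGF-β1 libraries, and FANCD2 at 3.81, 3.88 and 4.43 FPKM in control and 4.75, 5.09 and 5.23 FPKM in TGF-β1 libraries. Their log2 differences were 0.29 (SE 0.114, adjusted p = 0.152) and 0.26 (SE 0.0933, adjusted p = 0.135), short of the threshold. FANCI in control 3 sat close to the TGF-β1 values. The ratio of FANCD2 to FANCI was 0.452 ± 0.0395 in control and 0.448 ± 0.0185 in TGF-β1 libraries, a difference smaller than the spread.

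All 4 genes of the BLM dissolvasome had differences above 0, which varied in size from 0.0214 to 0.42. With the trend removed they stayed above 0, at 0.29 for BLM, 0.13 for RMI1, 0.13 for TOP3A and 0.028 for RMI2. RMI1, which steadies the complex, was at 3.38 ± 0.682 and 4.32 ± 0.345 FPKM (log2 difference 0.29, adjusted p = 0.169), and RMI2, its small partner, at 6.92 ± 0.268 and 7.05 ± 0.562 FPKM (adjusted p = 0.896). TOP3A had a log2 difference of 0.05 (SE 0.0859, adjusted p = 0.741). The ratio of TOP3A to BLM was 4.46, 4.66 and 3.24 in control and 2.98, 2.83 and 2.91 in TGF-β1 libraries. These ratios did not overlap, with control 3 nearest to the TGF-β1 libraries. The TOP3A and BLM transcripts have 55.2% and 41.2% GC, and the ratio was not computed with the trend removed.

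The junction nucleases included 2 of the 6 members with differences below 0. MUS81, the catalytic subunit that cuts branched DNA, stood at 8.83, 10.0 and 7.41 FPKM in control and 7.48, 7.04 and 7.05 FPKM in TGF-β1 libraries (log2 difference -0.24, SE 0.108, adjusted p = 0.194). Its groups overlapped through control 3. EME1, its regulatory partner, was at 5.06 ± 0.398 and 4.31 ± 0.565 FPKM (log2 difference -0.20, adjusted p = 0.263). Its groups did not overlap but nearly touched, with 4.67 FPKM in control 2 and 4.66 FPKM in TGF-β1 library 2. With the trend removed EME1 was no longer wholly lower. The ratio of MUS81 to EME1 was 1.75 ± 0.394 in control and 1.69 ± 0.216 in TGF-β1 libraries. SLX4, the scaffold that holds this and other nucleases, was at 3.16 ± 0.305 and 3.34 ± 0.196 FPKM (adjusted p = 0.709). With the trend removed, MUS81 and EME1 stayed below 0, at -0.12 and -0.15.

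Promoter sequence is shown for 4 members because their groups did not overlap and they span both directions: XRCC2, BLM and FANCD2 lay higher with TGF-β1 and FANCE lower. RefSeq (GRCh38.p14) gave a window from 250 bases before to 50 after the gene start for 33 of the 37 members. Capitals mark matches, on either strand, to an E2F site (TTTGGCGC or TTTCCCGC), a CHR element (TTTGAA), the box bound by NF-Y (CCAAT), an NRF1 site (GCATGCGC), an ETS site (CCGGAAG) or a pair of SMAD boxes (GTCTAGAC); none of these motifs contains another. Each sequence is printed 5′ to 3′ on the gene's strand, through 30 bases past the start.
XRCC2, chr7:152676112-152676391, minus strand: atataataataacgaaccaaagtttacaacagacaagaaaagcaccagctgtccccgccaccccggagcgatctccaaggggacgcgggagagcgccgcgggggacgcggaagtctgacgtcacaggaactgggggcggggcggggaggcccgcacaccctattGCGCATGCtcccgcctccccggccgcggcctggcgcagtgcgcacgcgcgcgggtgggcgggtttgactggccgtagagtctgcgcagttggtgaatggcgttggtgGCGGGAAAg
BLM, chr15:90717096-90717375, plus strand: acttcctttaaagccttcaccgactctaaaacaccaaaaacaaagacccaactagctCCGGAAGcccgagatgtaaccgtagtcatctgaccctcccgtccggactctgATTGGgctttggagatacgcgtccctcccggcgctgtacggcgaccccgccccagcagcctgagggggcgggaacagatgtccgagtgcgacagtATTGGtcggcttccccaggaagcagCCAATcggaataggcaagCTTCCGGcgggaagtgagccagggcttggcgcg
FANCD2, chr3:10026187-10026466, plus strand: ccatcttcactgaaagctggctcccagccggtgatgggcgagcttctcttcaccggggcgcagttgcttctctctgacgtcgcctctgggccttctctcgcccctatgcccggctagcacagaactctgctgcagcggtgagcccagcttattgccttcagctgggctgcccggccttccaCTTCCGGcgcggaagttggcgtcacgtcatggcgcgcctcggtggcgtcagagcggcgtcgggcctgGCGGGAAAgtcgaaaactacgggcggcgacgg
FANCE, chr6:35452088-35452367, plus strand: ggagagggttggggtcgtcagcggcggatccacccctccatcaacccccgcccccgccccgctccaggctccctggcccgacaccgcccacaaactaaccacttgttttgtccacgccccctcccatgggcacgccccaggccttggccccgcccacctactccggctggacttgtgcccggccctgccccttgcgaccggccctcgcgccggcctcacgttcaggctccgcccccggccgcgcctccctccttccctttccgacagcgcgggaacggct

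The XRCC2 window holds the reverse complement of the E2F letters TTTCCCGC, beginning 21 bases after the start, and an NRF1 match. FANCD2 holds the same E2F letters at the start itself and an ETS match upstream. BLM holds 3 CCAAT matches and 2 ETS matches, and FANCE holds none of the 7 motifs searched. Over the 33 members, TTTCCCGC was present in 3 (FANCC, FANCD2 and XRCC2; 9.09%, against 1.98% of 27305 genes) and TTTGGCGC in 0 (0.795% of all genes). The ETS letters were in 10 members (30.3%, against 12.2%), CCAAT in 14 (42.4%, against 39.7%), the NRF1 letters in RBBP8, SLX4 and XRCC2 (9.09%, against 3.68%) and TTTGAA in 3 (9.09%, against 18.2%). The paired SMAD letters were in 0 members (0.256% of all genes). These windows were richer in GC than most (median 64.3% against 58.7%). A match to short letters is a description and does not show binding.

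Genes of the same pathways outside the 37 were read beside them. Of 36 further recombination and Fanconi genes 32 were tested, 16 lay above 0, and the median was 0.0149. ERCC1, a subunit of the nuclease that unhooks crosslinks, was the only one past the threshold and fell from 38.2 ± 6.81 to 22.9 ± 1.99 FPKM (log2 difference -0.70, SE 0.133, adjusted p = 0.0190). Its values were 41.6, 42.6 and 30.4 FPKM in control and 25.0, 22.4 and 21.1 FPKM in TGF-β1 libraries, and control 3 was the lowest control. The ERCC1 call was lost without control 1, control 2, TGF-β1 library 2 or TGF-β1 library 3 (adjusted p 0.0649 to 0.0854) or with every gene tested (0.28), and 28.6% of its exon bases are shared with CD3EAP. CENPX, a histone-fold protein of the FANCM complex, was at 60.6 ± 13.0 and 44.5 ± 3.11 FPKM, and USP1, which removes ubiquitin from FANCD2, at 19.0 ± 2.31 and 24.8 ± 1.58 FPKM (adjusted p = 0.136 and 0.0853). RAD51AP1, a cofactor of strand invasion, was at 12.4 ± 1.92 and 16.2 ± 2.26 FPKM, and DNA2, a resection nuclease, at 3.91 ± 1.18 and 4.96 ± 0.47 FPKM (adjusted p = 0.131 and 0.235). In 7 of the 32 (21.9%) all TGF-β1 values lay above all control values and in 1 (3.12%) below, against 14.6% and 12.5% of all genes. Without control 3, 8 of the 32 passed as higher and 4 as lower, where 12.4% and 16.5% of all genes did.

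Of 18 checkpoint adaptors and replication protein A genes, 14 lay above 0, and the median was 0.103 (0.105 with the trend removed). In 8 (44.4%) all TGF-β1 values lay above all control values, against 14.6% of all genes, and in 0 all lay below. At an unadjusted p under 0.05, 4 of 18 were higher and 0 lower (11.2% and 13.9% of all genes). Without control 3, 3 of 18 passed as higher and 0 as lower (12.4% and 16.5% of all genes). Voom called 3 higher, where 9.33% of all genes passed in either direction. WEE1, the kinase that restrains mitotic entry, was the only one past the threshold. It stood at 6.82, 7.52 and 8.20 FPKM in control and 9.61, 11 and 11.4 FPKM in TGF-β1 libraries, and rose with a log2 difference of 0.46 (SE 0.101, adjusted p = 0.0411). WEE1 no longer passed once the GC and length trend had been taken out (adjusted p = 0.0724), nor without control 1, control 2, TGF-β1 library 2 or TGF-β1 library 3 (0.114 to 0.211), nor without the filter (0.294) or without trend and robust estimation (0.0678). CLSPN, the adaptor between ATR and CHEK1, was at 7.92 ± 2.11 and 11.9 ± 0.411 FPKM, and TOPBP1, an activator of ATR, at 6.19 ± 1.2 and 8.45 ± 0.27 FPKM (adjusted p = 0.0856 and 0.0863). TIPIN, of the fork protection complex, was at 5.24 ± 1.24 and 6.32 ± 0.0602 FPKM, and ETAA1, another ATR activator, at 1.38 ± 0.116 and 1.83 ± 0.246 FPKM (adjusted p = 0.264 and 0.175).

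End joining, the competing repair route that rejoins ends without a template, showed no gene past the threshold in limma (0 of 18, 10 above 0, median 0.0461). At an unadjusted p under 0.05 it had 2 of 18 higher and 2 lower, where 11.2% of all genes were higher and 13.9% lower. In 2 (11.1%) all TGF-β1 values lay above all control values and in 2 (11.1%) below, against 14.6% and 12.5% of all genes. Voom called 1 higher and 1 lower, where 9.33% of all genes passed. The largest differences were in XRCC1, a scaffold of break repair, at 7.78 ± 1.19 and 5.94 ± 2.0 FPKM, in the polymerases POLM (2.62 ± 0.331 and 1.80 ± 0.186 FPKM) and POLL (6.96 ± 1.35 and 5.15 ± 0.39 FPKM), and in the kinase PRKDC (24.9 ± 4.88 and 31.3 ± 1.13 FPKM). Their adjusted p-values were 0.0841 to 0.316.

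Genes of S and M phase were read beside the members, without a test between the lists. Of 22 tested 16 lay above 0, with a median of 0.214, and 21 did once the GC and length trend was removed, with a median of 0.175. None passed in the main limma fit (0 of 22), and 4 passed with the trend removed (4.32% of all genes did). Without control 3, 10 passed as higher and 0 as lower (12.4% and 16.5% of all genes). In 8 (36.4%) all TGF-β1 values lay above all control values, against 14.6% of all genes, and in 0 all lay below. At an unadjusted p under 0.05, 10 were higher and 0 lower (11.2% and 13.9% of all genes). Voom called 4 higher, where 9.33% of all genes passed in either direction. The largest differences were in CCNE2, a cyclin of S-phase entry (1.58 ± 0.292 and 2.56 ± 0.451 FPKM), MKI67 (13.6 ± 3.65 and 17.8 ± 1.41 FPKM), TOP2A (38.0 ± 5.89 and 48.9 ± 0.41 FPKM) and the replication licensing factor CDC6 (18.1 ± 0.522 and 22.8 ± 1.52 FPKM), with adjusted p-values of 0.0762 to 0.197. In bulk RNA a change in the number of cells in S phase and a change in RNA per cell cannot be told apart, and the part of these genes in the members' differences was not tested.

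**Figure D4:**
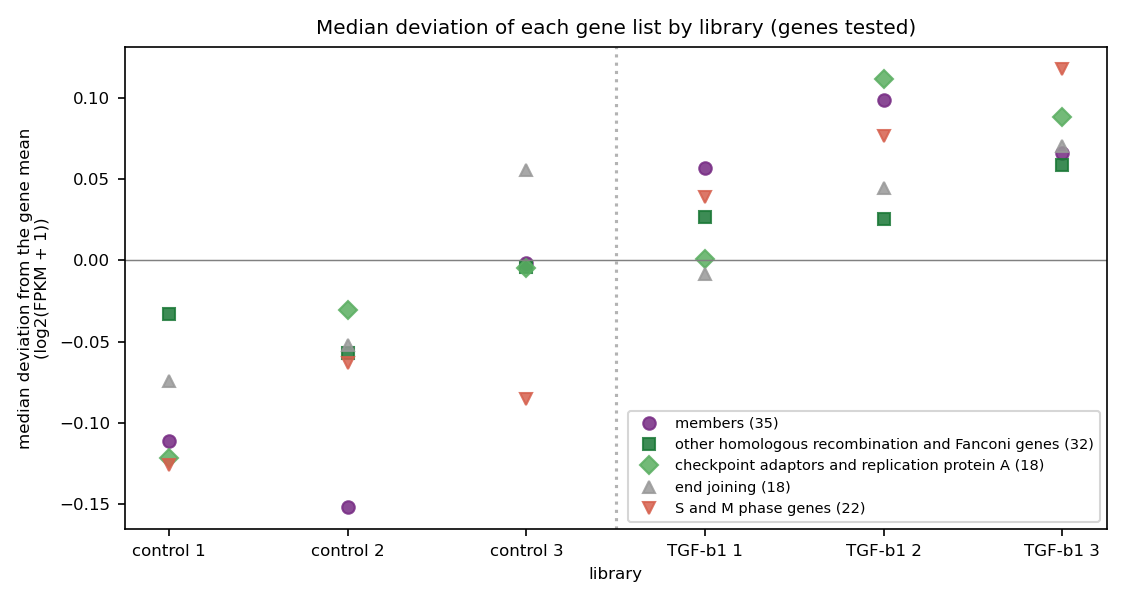
Median deviation from each gene's mean over the 6 libraries, on log2(FPKM + 1), for the 35 tested members and 4 comparison lists (marker shapes) in each library (horizontal axis). The member medians were -0.111, -0.152 and -0.00136 in controls 1 to 3 and 0.0572, 0.0989 and 0.0661 in the TGF-β1 libraries, while the end joining median in control 3 exceeded those in TGF-β1 libraries 1 and 2.

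Per library, the median member deviated from its own mean by -0.111, -0.152 and -0.00136 (log2) in the control libraries and by 0.0572, 0.0989 and 0.0661 in the TGF-β1 libraries. Control 3 lay between the other controls and the TGF-β1 libraries. With the GC and length trend removed the values were -0.0297, -0.0583 and -0.0219 in control and 0.0206, 0.0448 and 0.0482 in TGF-β1 libraries, and control 3 then lay with the other controls.

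Gene structure bears on how some members were counted. In the GENCODE annotation 22 members share exon bases with another gene and 15 share none, and the strand setting of the counting is not stated, which leaves fragments of overlapping genes on opposite strands impossible to separate. RAD50 shares 79.7% of its exon bases with the same-strand gene AC116366.3, which was listed at no more than 0.0193 FPKM. XRCC3 shares 76.7% with KLC1 on the opposite strand (1.99 ± 0.13 and 1.88 ± 0.261 FPKM), and RAD54B shares 59.1% with FSBP (0.224 ± 0.0637 and 0.223 ± 0.0441 FPKM). If fragments on shared bases were discarded, as some counting settings do, the unshared bases alone would give 1.62 and 1.93 FPKM for RAD50, 2.66 and 3.10 FPKM for RAD54B and 19.3 and 16.9 FPKM for XRCC3 in control and TGF-β1 libraries. SLX1A and SLX1B, near-identical partners of SLX4, had 0 to 3 fragments per group and share 86.2% and 82.4% of their exon bases. Which setting was used was not tested, and levels of these genes are uncertain. On unshared bases RAD50 would no longer be the lowest member, and XRCC3 would lie above the 17.1 and 16 FPKM of FANCG.

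Many members also start next to another gene. A gene on the other strand began within 1000 bases of the start in 20 members, and in 11 such pairs both genes were tested. The signs were the same in 8 of the 11, and the partners' adjusted p-values were 0.106 to 0.98. NPAT, which shares its promoter region with ATM and activates histone genes, was at 2.29 ± 0.781 and 3.01 ± 0.147 FPKM in control and TGF-β1 libraries, beside 2.05 and 2.40 FPKM for ATM. MRPL27, whose start is 6 bases from that of EME1, was at 17.5 ± 2.46 and 13.2 ± 1.23 FPKM (adjusted p = 0.106), lower as EME1 was.

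The remaining divergent partners differed less. NBR1, beside BRCA1, stood at 15.4 ± 1.15 and 15.3 ± 0.206 FPKM, DCTN5, beside PALB2, at 8.34 ± 0.426 and 8.71 ± 0.645 FPKM, and ZFYVE21, beside XRCC3, at 3.62 ± 0.25 and 3.32 ± 0.27 FPKM. HSCB (CHEK2) was at 9.50 ± 0.424 and 10.6 ± 0.801 FPKM, MOSPD2 (FANCB) at 3.05 ± 0.55 and 3.46 ± 0.117 FPKM, and FKBP3 (FANCM) at 22.8 ± 1.18 and 25.0 ± 0.362 FPKM. CIDECP (FANCD2) was at 1.10 ± 0.238 and 0.964 ± 0.111 FPKM, HNRNPK (RMI1) at 128 ± 1.09 and 123 ± 7.16 FPKM, and SMCR8 (TOP3A) at 6.14 ± 0.481 and 6.82 ± 0.643 FPKM. For the last 9 the adjusted p-values were 0.33 to 0.98.

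Genes whose spans overlap a member had adjusted p-values of 0.0718 to 0.89. CFL1, which covers 13.9% of the MUS81 exon bases, was at 202 ± 39.5 and 153 ± 20.4 FPKM (adjusted p = 0.166), and SOCS1, which lies within the RMI2 span and shares no exon bases with it, at 14.9 ± 2.75 and 10.2 ± 1.02 FPKM (adjusted p = 0.0718). LRRC41, which covers 25.1% of the RAD54L exon bases, was at 13.6 ± 1.21 and 10.8 ± 0.711 FPKM (adjusted p = 0.112), while the RAD54L groups overlapped. ZNF276 (23.6% of FANCA) was at 2.88 ± 0.183 and 2.79 ± 0.407 FPKM, VRK2 (18.7% of FANCL) at 3.50 ± 0.04 and 4.06 ± 0.293 FPKM, and LRRC59 (16.4% of EME1) at 59.3 ± 1.81 and 60.2 ± 0.913 FPKM. POLG, on the other strand of FANCI, was at 14 ± 1.2 and 12.2 ± 1.16 FPKM, and STT3A, beside CHEK1, at 31.3 ± 0.897 and 31.8 ± 1.26 FPKM. The rest were NBR2 and AC060780.3 in the BRCA1 span (1.90 ± 0.134 and 1.79 ± 0.0846, and 4.61 ± 2.29 and 1.83 ± 1.14 FPKM), AC023632.6 in that of RAD54B (2.98 ± 0.533 and 3.33 ± 0.148 FPKM) and DECR1 in that of NBN (10.7 ± 1.73 and 9.86 ± 1.53 FPKM). For these and KLC1 the adjusted p-values were 0.261 to 0.89.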

How the data were processed

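RNA was sequenced as 150 bp read pairs from 3 control and 3 TGF-β1 treated samples of T24 cells. The submitters' processing notes list featureCounts 1.5.0-p3, HISAT2 2.0.5 and the build hg38, without their settings. Trimming, strand setting and annotation release were not given in the sources used here. The deposited values are FPKM, in 1 table of 6 columns and in 6 files that repeat it, and 11 rows of mapping totals were left out. Rows were matched by symbol to GENCODE release 29 (56923 of 58735), whose exon lengths turned 99.999% of the values above 0 into whole fragments to within 0.05; the authors' deposited FPKM carry a scaling between libraries.

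The test was limma 3.58.1 (R 4.3.3; trend and robust estimation) on log2(FPKM + 1), for 11363 genes that reached 1 FPKM in 3 or more libraries, with treatment as the only term and Benjamini-Hochberg adjustment over all of them at 0.05. Every adjusted p printed comes from it unless another setting is named. Trends with GC content and length were removed per library by loess (span 0.5). No 2 libraries were duplicates (chi-square per degree of freedom of their fragments 7.61 to 36.3 within groups). By this measure control 3 was nearer to TGF-β1 libraries 1 and 2 (18 and 17.9) than to controls 1 and 2 (25.6 and 36.3). Against TGF-β1 library 3 it was 30.3.

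All 37 members are named. Every library's value is given for members past the threshold and, in each role, for the member with the largest difference and that with the highest level; a few more were added after their values were seen (XRCC3, RAD50, FANCE, FANCM, FANCD2 and the ratios between partners). Of the comparison lists, genes past the threshold are named and then the 4 largest differences; overlapping and divergent genes are named where tested. The members and lists were chosen with earlier results of these data known.

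As alternatives, the fit was repeated with quantile normalization, scaling to total fragments, removal of the GC and length trend, limma without trend or robust estimation, voom on the fragments, protein-coding genes alone, a minimum of 5 FPKM, no filter on low values, 0.1 as the pseudocount, the replicate number as a block, and leaving out each library. Removing the trend together with control 3, and both recounts of members without overlap, were chosen after seeing the data. A few genes of the comparison lists are not reported here.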

Additional observations from a re-analysis of the deposited data

How the results depend on the processing

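The median difference of the members was above 0 in all 18 alternatives, and 22 of 35 members kept their sign in every alternative they entered. Of 612 values of single members under an alternative, 547 kept sign and side of the threshold, 38 changed sign, 21 gained a call and 6, all of XRCC2, lost one. Genes past the threshold numbered 15 with no filter, 500 at a minimum of 5 FPKM, 491 with the GC and length trend removed, 1054 by voom, 842 over protein-coding genes alone, and 956 with the trend removed and control 3 left out (chosen after seeing the data); leaving out 1 library gave 124 (control 1) to 3280 (control 3). Members past it numbered 0 with no filter and 0 in limma without trend or robust estimation. At an unadjusted p under 0.05, 11 and 12 of the 35 members passed under these settings, where 10.8% and 24.4% of all genes did. The 10.8% is over 28285 genes, including those too low for the main filter. All 35 members had met that filter, so this share is not a like comparison. In the main fit 13 members and 25.1% of 11363 genes passed at that unadjusted p. Past the adjusted threshold, members numbered 3 by voom (9.33% of all genes) and 2 over protein-coding genes (XRCC2 and BLM, against 8.42% of those genes). With the trend removed and control 3 left out they numbered 3 (8.41% of all genes). Leaving out 1 library gave 0 to 17 members. It gave 0 without control 1, control 2, TGF-β1 library 2 or TGF-β1 library 3, where 1.09%, 1.55%, 1.34% and 1.34% of all genes passed. It gave 1 without TGF-β1 library 1 (2.9% of all genes) and 17 without control 3 (28.9% of all genes). The other recombination and Fanconi genes numbered 0 with no filter, 2 by voom, 2 over protein-coding genes, 3 with the trend removed and control 3 left out, and 0 to 12 on leaving out 1 library. Members without overlap between groups numbered 11 with the trend removed, against 17. With the trend removed 9 were higher (25.7%, against 14.5% of all genes) and 2 lower (5.71%, against 12.8%). As deposited 15 were higher (42.9%, against 14.6%) and 2 lower (5.71%, against 12.5%). The median difference was 0.0744 with the trend removed and 0.0630 when control 3 was also left out. The replicate number was also fitted as a block: it gave 767 genes past the threshold, 1 member and 3 of the other recombination and Fanconi genes, and 580 genes, 1 member, 1 other gene and a median of 0.0744 with the trend removed too. Deviations of same-numbered libraries correlated at 0.254, -0.0715 and 0.17, and those of differently numbered libraries at -0.243 to 0.0694. Whether the numbers mark pairs was not settled, and the main fit left them out.

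With the trend removed, with or without the replicate block, the differences that changed sign were BRCA2 at -0.036, RAD51C at -0.025, RAD51D at -0.035, XRCC3 at 0.044, RAD54B at -0.051, ATM at -0.042, ATR at -0.040, FANCF at -0.027 and FANCG at 0.090. With control 3 also left out they were -0.077, -0.088, -0.076, 0.0087, -0.081, -0.024, -0.072, -0.029 and 0.118 in the same order. Quantile normalization gave FANCF -0.011. Leaving out 1 library gave ranges that crossed 0 in RAD51C (-0.030 to 0.23), RAD54L (-0.015 to 0.050), CHEK2 (-0.041 to 0.10), FANCF (-0.082 to 0.086), RMI2 (-0.011 to 0.081) and SLX4 (-0.00072 to 0.10). The cause was not tested. The fewest fragments per library were 49 to 117 in RAD50, which was not tested, and 69 to 201 in FANCB, whose controls varied by 50.6% against a counting error of 12.0%.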
